A study of Mus musculus with 10 samples.

Results

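Serpins form a large family of proteins with a shared fold, and the family was taken here as every mouse gene whose symbol is Serpin followed by a clade letter from a to i, a number and, for expanded subfamilies, a further letter. The annotations hold 64 such symbols. A transcript was found for 62 of them, of 24562 genes with a symbol in all, and none for Serpina16 and Serpinb9h. Of these 62 genes, 22 reached 1 FPKM (the authors' unit of RNA level, which counts fragments relative to transcript length and library depth) in at least 2 libraries and were tested, within 12415 genes tested in all. The other 40 stayed below that level and are described as values only.

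Most serpins inhibit proteases by offering an exposed loop as bait. The protease cuts the loop, stays attached to it and is dragged across the serpin body, which destroys both partners. Some members have lost this activity and serve instead as hormone carriers, as signalling proteins or, for Serpinh1, as a chaperone of collagen. Clades are named by letter: most members of clades a, e, f and g are secreted, whereas clade b members lack a classical signal peptide and act mainly inside cells. In a gland that secretes proteases into its fluid and is bounded by basal cells and connective tissue, members of each kind can be made by different cells.

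The libraries came from prostates of C57BL/6 mice that were 8 to 12 weeks old, with no other allele or treatment named in the labels. After removal of cells with lineage markers (Lin), 4 populations were sorted on the surface proteins CD24, CD49f and, for luminal cells, Sca-1. Stromal cells (Lin-/CD24-/CD49f-) gave 2 libraries, and basal cells (Lin-/CD24low/CD49fhigh) gave 2. Luminal cells (Lin-/CD24high/CD49flow) gave 3 Sca-1+ and 3 Sca-1- libraries. Nothing in the labels ties the libraries of a group to different animals. Every p-value therefore covers the spread seen among the libraries themselves, which may be technical. The labels also leave unsaid whether cells were cultured before extraction: a culture protocol stands beside the sort protocol. Replicate numbers follow the order of listing and pair nothing.

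Libraries held 20.2 to 27.1 M (mega) fragments, read from the steps between low FPKM values, and 9767 to 11274 genes reached 1 FPKM in each. The 7 basal markers (Krt5 and Krt14 among them) summed to 4924 and 6764 FPKM in basal libraries, and to between 21.9 and 494 FPKM in the other 8. The 10 fibroblast markers (Col1a1 and Dcn among them) summed to 7279 and 5466 FPKM in stromal libraries and 685 and 500.3 FPKM in basal libraries. In Sca-1+ luminal libraries they summed to 5012, 2546 and 372 FPKM, as set against 99.0, 76.35 and 137 FPKM in Sca-1- luminal libraries, so the Sca-1+ sums lay below both stromal sums and above every Sca-1- sum, and the third was the lowest of its group. The 6 seminal vesicle markers summed to 18890, 1401 and 42650 FPKM in Sca-1- luminal libraries. The third of these also had the lowest sum of the 6 luminal markers among luminal libraries, 2613 FPKM, and stood apart from the other Sca-1- luminal libraries. In bulk samples such as these, fewer cells of a type and less RNA per cell cannot be told apart.

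Which gene led the serpin RNA differed between the populations and, among luminal cells, between libraries. Summed over the 62 members, serpins came to 2864 and 2965 FPKM in stromal libraries, and 344 and 341 FPKM in basal libraries. The sum was 2574, 1568 and 508 FPKM in Sca-1+ luminal libraries and 407, 546 and 315 FPKM in Sca-1- luminal libraries. The stromal sums lay above those of every other library, and the Sca-1+ luminal libraries were spread between the stromal and the basal level. As a share of all FPKM, serpins made up 0.742% and 0.668% in stromal libraries, 0.0952% and 0.0931% in basal libraries, 0.655%, 0.379% and 0.116% in Sca-1+ luminal libraries and 0.0670%, 0.0874% and 0.0516% in Sca-1- luminal libraries. Serping1 was the leading member in both stromal libraries, with 54.5% and 51.1% of serpin FPKM, and in the first and second Sca-1+ luminal library, with 49.5% and 45.6%. Serpinb5 led in basal libraries with 46.3% and 33.9%. Serpinb1a led in the third Sca-1+ luminal library with 21.8% and in the second Sca-1- luminal library with 42.8%. Serpine2 led in the first and the third Sca-1- luminal library with 29% and 49.4%.

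**Figure D1:**
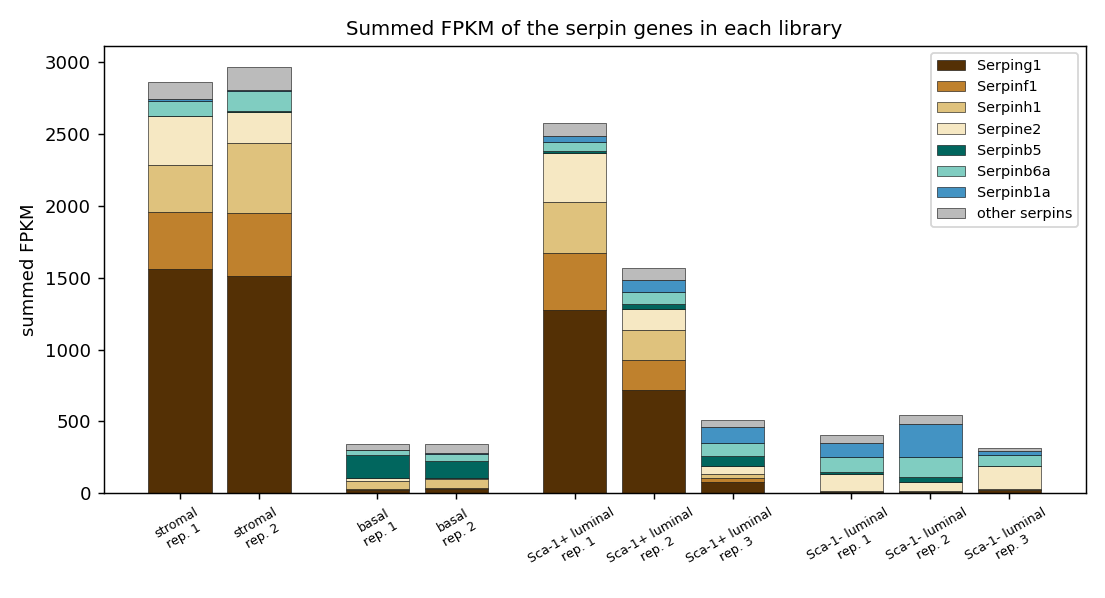
Summed FPKM of the 62 serpin genes in each library (y axis), stacked by gene, for stromal, basal, Sca-1+ luminal and Sca-1- luminal libraries (x axis). The stromal bars reach 2864 and 2965 FPKM and are mostly Serping1, Serpinf1, Serpinh1 and Serpine2, whereas the basal bars reach 344 and 341 FPKM and hold more Serpinb5 than any other member.

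Among the 22 tested members, 13 had their highest group mean in stromal libraries, 3 in basal, 4 in Sca-1+ luminal and 2 in Sca-1- luminal libraries. No tested member reached 1 FPKM in libraries of 1 group only. Differences were tested with limma on log2(FPKM + 1), and a call means a limma adjusted p (Benjamini-Hochberg, over all 12415 genes) under 0.05; all log2 changes are on that scale, which understates the change of genes at low levels. Stromal libraries were set against the mean of the basal, Sca-1+ and Sca-1- luminal groups, weighted alike. Here 12 members rose and 5 fell, where 15.8% of all tested genes rose and 18.4% fell, 34.2% in either direction. In basal against Sca-1- luminal libraries, 4 members rose and 6 fell, where 20.1% and 25.9% of all genes did, 46.1% in all. No member rose and 8 fell in basal against Sca-1+ luminal libraries, where 4.38% of all genes rose and 15.3% fell, 19.7% in all. Sca-1+ against Sca-1- luminal libraries gave 6 members that rose and none that fell, against 21.8% and 13.3% of all genes. As shares of the 22, the calls in either direction were 77.3% for stromal, 45.5% for basal against Sca-1-, 36.4% for basal against Sca-1+ and 27.3% for Sca-1+ against Sca-1- luminal libraries, where 35% of all genes were called. The basal against Sca-1- share is close to that of all genes, and the Sca-1+ against Sca-1- share is below it. The median log2 change of the tested members was 0.99 for stromal, 0.01 for basal against Sca-1-, -0.98 for basal against Sca-1+ and 0.60 for Sca-1+ against Sca-1- luminal libraries. The same medians over all tested genes were -0.12, -0.05, -0.29 and 0.19. These comparisons share libraries, so their counts are not independent of each other.

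Leaving out 1 library moved some of these counts. Such fits have fewer degrees of freedom, and their calls over all genes are not given here. The counts below are therefore not read as particular to serpins. Without the first or the second stromal library, the 17 stromal calls became 7 and 4. Without the first or the second basal library, the 10 calls of basal against Sca-1- became 5 each, and the 8 of basal against Sca-1+ became 0 and 1; the last count was 4 without the second Sca-1+ luminal library.

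**Figure D2:**
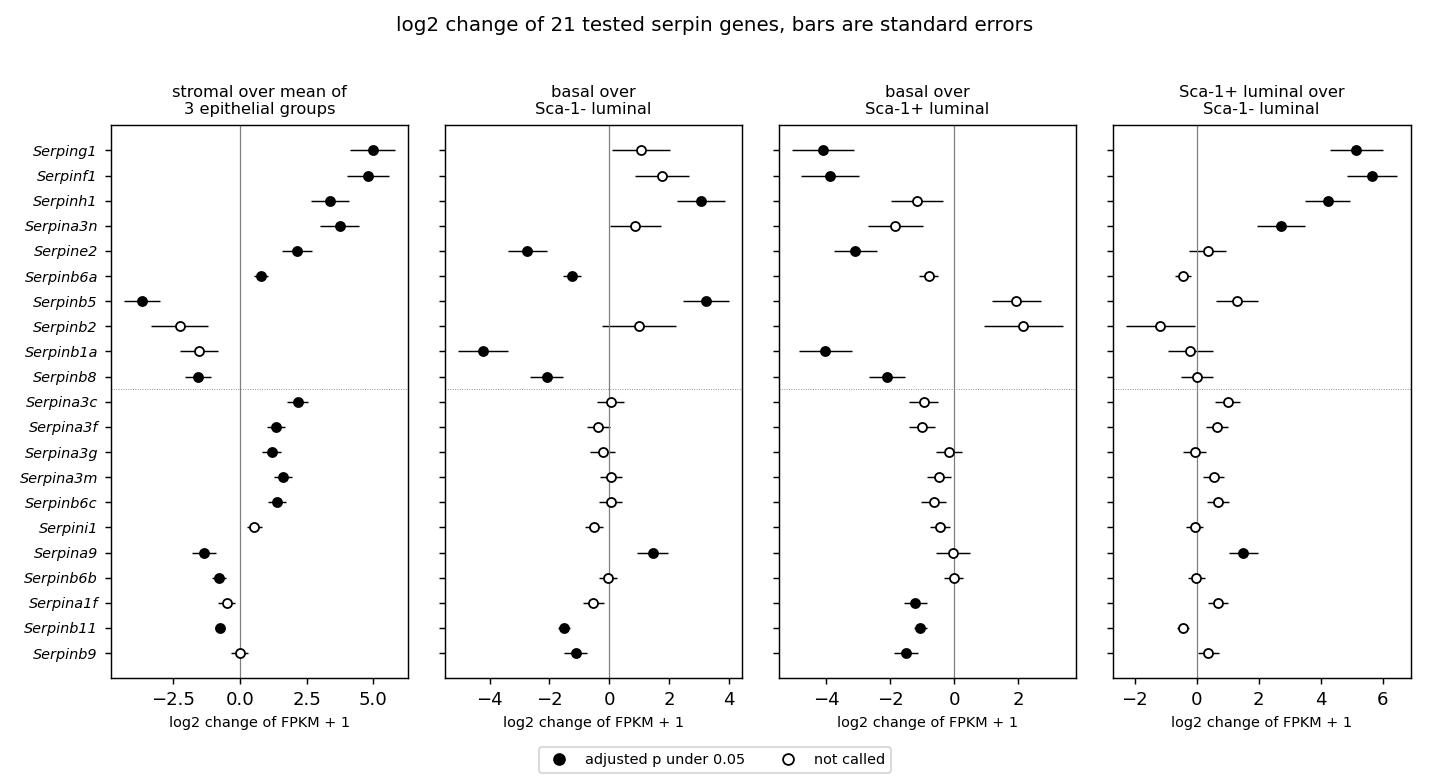
Log2 change of FPKM + 1 (x axis) of 21 tested serpin genes (y axis) in the 4 comparisons, with bars for the standard error; filled points have a limma adjusted p under 0.05. Serping1, Serpinf1, Serpinh1 and Serpina3n are filled on the right both for stromal over epithelial and for Sca-1+ over Sca-1- luminal, and the 4 comparisons share libraries.

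Serping1 (ENSMUSG00000023224.12, chr2:84765387-84775444, minus strand, mm10) encodes C1 inhibitor, the secreted serpin that blocks the complement enzymes C1r, C1s and MASP and the contact enzymes kallikrein and factor XII. It had 1559 and 1515 FPKM in stromal libraries and 18.9 and 28.65 FPKM in basal libraries. In Sca-1+ luminal libraries it had 1273, 716 and 77.3 FPKM, against 9.03, 6.79 and 19.4 FPKM in Sca-1- luminal libraries. The stromal values lay above all others, every Sca-1+ value lay above every Sca-1- and basal value, and basal and Sca-1- luminal values overlapped. The log2 change was 4.97 (SE 0.835, limma adjusted p = 0.00267) for stromal over epithelial and 5.15 (SE 0.859, adjusted p = 0.00267) for Sca-1+ over Sca-1- luminal, and both calls held in every setting tried. Its level fell by 4.09 in basal libraries (adjusted p = 0.0172) against Sca-1+ luminal, a call lost without either basal library (adjusted p = 0.115 and 0.0898) or without the second Sca-1+ luminal library (0.0558). With the third Sca-1+ luminal library alone for its group, the one with the lowest fibroblast marker sum there, the change was -1.69 and was not called (adjusted p = 0.066).

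Serpinf1 (ENSMUSG00000000753.15, chr11:75409769-75422701, minus strand) encodes pigment epithelium-derived factor, a secreted serpin that inhibits no protease and restrains the growth of blood vessels. It had 395 and 432.5 FPKM in stromal libraries and 6.83 and 9.66 FPKM in basal libraries. The Sca-1+ luminal libraries had 398, 210.5 and 28.4 FPKM, and the Sca-1- luminal libraries 0.555, 1.58 and 3.83 FPKM. No 2 of these groups overlapped except stromal and Sca-1+ luminal, whose first library lay between the stromal values. Serpinf1 had the largest log2 change of any member between the luminal groups, 5.65 (SE 0.812, limma adjusted p = 0.00142), and it rose by 4.80 (SE 0.789, adjusted p = 0.00247) in stromal over epithelial libraries. Its level fell by 3.89 in basal libraries against Sca-1+ luminal (adjusted p = 0.0167), which the same 3 omissions as for Serping1 left at adjusted p = 0.111, 0.0906 and 0.0547. Against the third Sca-1+ luminal library alone the change was -1.69 and was not called (adjusted p = 0.0843). The change of 1.76 for basal over Sca-1- luminal was not called (adjusted p = 0.14).

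Serpinh1 (ENSMUSG00000070436.12, chr7:99345376-99353239, minus strand) encodes HSP47, the chaperone that holds procollagen in its folded form inside the endoplasmic reticulum. It had 330.2 and 488 FPKM in stromal libraries and 59.3 and 58.4 FPKM in basal libraries. Values were 357, 211 and 31.3 FPKM in Sca-1+ luminal libraries and 5.38, 5.09 and 8.51 FPKM in Sca-1- luminal libraries. All basal values exceeded all Sca-1- values and lay within the Sca-1+ range. The log2 changes were 3.38 (SE 0.698, limma adjusted p = 0.00611) for stromal over epithelial, 3.06 (SE 0.803, adjusted p = 0.0117) for basal over Sca-1- and 4.23 (SE 0.718, adjusted p = 0.00288) for Sca-1+ over Sca-1- luminal. The basal call was lost without either basal library (adjusted p = 0.0625 and 0.061) and the stromal call without the second stromal library (0.0673).

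Of the 17 collagen and collagen-folding genes tested with Serpinh1, 12 rose and none fell in stromal over epithelial libraries, with a median log2 change of 2.51 against -0.12 over all genes. Col3a1, Col1a2, Col1a1 and Col5a2, all fibrillar collagen chains, led with log2 changes of 4.47, 4.44, 4.26 and 4.12. In Sca-1+ over Sca-1- luminal libraries 11 rose, Col1a2 by 5.05 being the largest, and 2 fell, Ppib and P4hb. In basal over Sca-1- luminal libraries 4 rose and 2 fell: Col4a1 (3.85) and Col4a2 (3.15), which form the collagen of basement membranes, led the rise, and Ppib (-2.40) and P4hb (-2.01), general folding enzymes of the endoplasmic reticulum, were the members that fell. As shares of the 17, these calls were 70.6%, 76.5% and 35.3% in that order of comparisons, against 34.2%, 35% and 46.1% of all tested genes. Col1a1 was at 7.17 and 8.77 FPKM in basal libraries and 3.42, 1.665 and 5.68 FPKM in Sca-1- luminal libraries, so fibrillar collagen was low in both.

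Serpina3n (ENSMUSG00000021091.8, chr12:104406729-104414329, plus strand) is a secreted mouse counterpart of human antichymotrypsin. It had 47.5 and 63.7 FPKM in stromal libraries, 2.27 and 2.46 FPKM in basal libraries, 30.6, 21.5 and 1.505 FPKM in Sca-1+ luminal libraries and 0.880, 0.512 and 1.155 FPKM in Sca-1- luminal libraries. The third Sca-1+ luminal library lay below both basal values, and no Sca-1- value overlapped any other group. The gene rose by 3.73 in stromal over epithelial libraries (SE 0.747, limma adjusted p = 0.00536), a call lost without the second stromal library (0.0589). It rose by 2.73 in Sca-1+ over Sca-1- luminal libraries (SE 0.769, adjusted p = 0.0234). That call was lost without any luminal library other than the third Sca-1+ one, with adjusted p between 0.0576 and 0.082.

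Serpine2 (ENSMUSG00000026249.10, chr1:79794197-79861180, minus strand) encodes protease nexin 1, a secreted inhibitor of thrombin and urokinase that is abundant in mouse seminal vesicle. It had 341 and 220 FPKM in stromal libraries and 19.0 and 12.2 FPKM in basal libraries. It had 338, 145 and 52.6 FPKM in Sca-1+ luminal libraries and 118, 67.1 and 156 FPKM in Sca-1- luminal libraries, so the luminal groups overlapped and the basal libraries stood below every other. Its level fell by 2.73 in basal libraries against Sca-1- luminal (SE 0.664, limma adjusted p = 0.0081) and by 3.09 against Sca-1+ luminal (SE 0.664, adjusted p = 0.0119). These calls were lost without the second basal library (0.0669 and 0.109), and the call against Sca-1+ luminal also without the first (0.057). Against the third Sca-1+ luminal library alone the basal change was -1.72 and was not called (adjusted p = 0.0582). Its level rose by 2.14 in stromal libraries over epithelial ones (SE 0.577, adjusted p = 0.0192), at 0.172 and 0.0724 without the first or the second stromal library. The change of 0.36 between Sca-1+ and Sca-1- luminal libraries was not called (SE 0.594, adjusted p = 0.658). Among the Sca-1- luminal libraries, Serpine2 had the same order as the summed seminal vesicle markers, highest in the third and lowest in the second. The orders differed among the Sca-1+ luminal libraries, where these markers summed to 7176, 4020 and 4475 FPKM. They summed to 139 and 119 FPKM in stromal libraries and 113 and 80.4 FPKM in basal libraries. The part of seminal vesicle RNA in the Serpine2 level was not tested.

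The genes above that rose in Sca-1+ over Sca-1- luminal libraries, namely Serping1, Serpinf1, Serpinh1 and Serpina3n, rose where the fibroblast markers did. All 10 fibroblast markers rose in stromal over epithelial libraries and all 10 in Sca-1+ over Sca-1- luminal libraries, with median log2 changes of 4.35 and 4.46, and 8 fell in basal against Sca-1+ luminal libraries. None of the 10 was at 0 in any library. Most of the basal sum was Dcn, at a mean of 557 FPKM in basal libraries and 233 FPKM in the third Sca-1+ luminal library. Dcn was also the 1 marker that rose in basal over Sca-1- luminal libraries, where the other 9 were not called. Basal libraries had fibroblast sums of 685 and 500.3 FPKM, the third Sca-1+ luminal library 372 FPKM, the lowest of its group, and the Sca-1- luminal libraries 76.35 to 137 FPKM. With that library alone standing for its group, Serpinf1 still rose by 3.45 over Sca-1- luminal (SE 0.540, limma adjusted p = 0.00522), Serping1 by 2.75 (0.00908) and Serpinh1 by 2.17 (0.0057). Serpina3n then had a change of 0.45 (0.376) and Serpine2 of -1.01 (0.195), neither called. In this fit the lone library is assumed to vary like the other groups. Markers of other cell types also differed among the Sca-1+ luminal libraries. Endothelial markers summed there to 40.5, 31.3 and 6.05 FPKM, against 17.2 and 16.02 for stromal and 10.8 to 17.7 for Sca-1- luminal. Smooth muscle markers summed there to 255, 380 and 24.7 FPKM, against 150 and 297 for stromal and 56.9 to 79.5 for Sca-1- luminal. None of the 6 genes in either list was called between the luminal groups. The part of fibroblast, endothelial or smooth muscle RNA in the serpin changes was not tested.

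**Figure D3:**
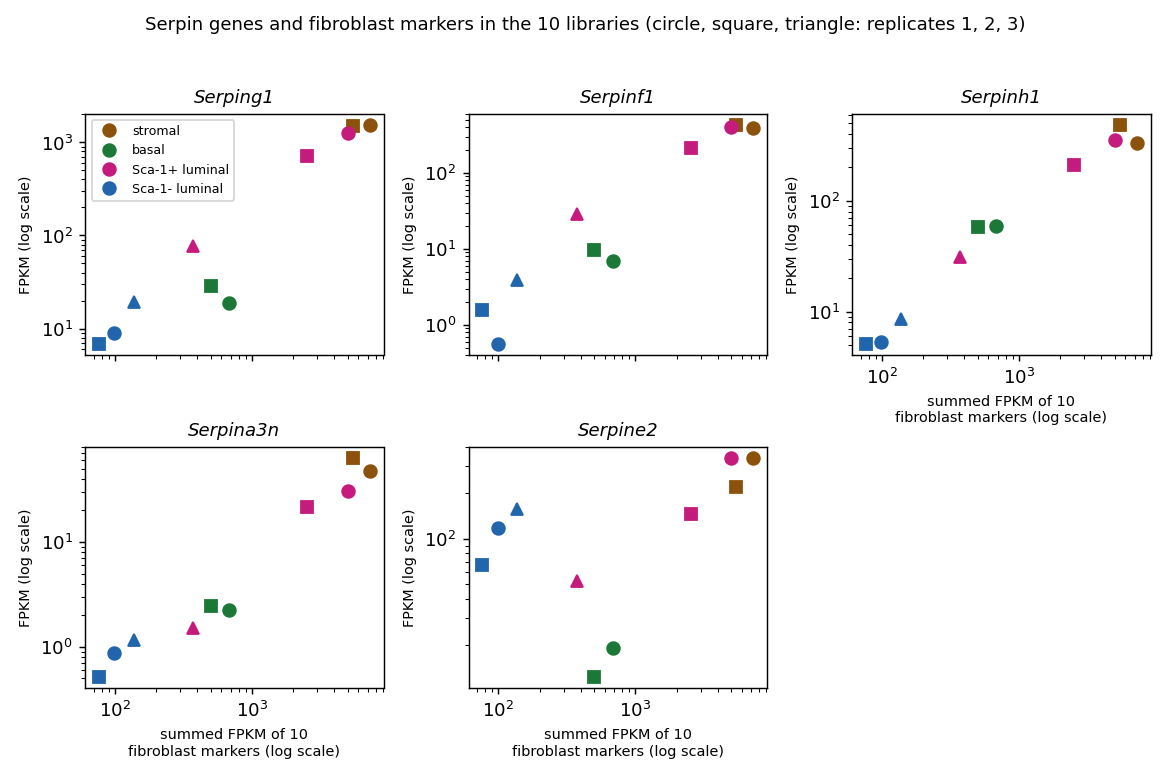
FPKM of 5 serpin genes (y axes, log scale) against the summed FPKM of 10 fibroblast markers (x axes, log scale) in the 10 libraries, coloured by group, with replicates 1, 2 and 3 as circle, square and triangle. Serping1, Serpinf1, Serpinh1 and Serpina3n have their 4 highest values in the 2 stromal and the first and second Sca-1+ luminal libraries. These libraries also have the 4 highest marker sums. Serpine2 is lowest in the basal libraries, whose marker sums of 685 and 500.3 FPKM exceed those of the Sca-1- luminal libraries mostly through Dcn.

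The proteases that these secreted serpins meet, and the receptors of those proteases, followed more than 1 arrangement. Plat, the tissue-type plasminogen activator, had 1092 and 2031 FPKM in stromal libraries, 18.1 and 51.7 FPKM in basal libraries, 1014, 902 and 345.5 FPKM in Sca-1+ luminal libraries and 48.1, 105 and 7.37 FPKM in Sca-1- luminal libraries, an order of groups close to that of Serping1. F3, the tissue factor that starts clotting, had 492 and 266 FPKM in stromal libraries, 2172 and 2285 FPKM in basal libraries, 588, 908 and 1016 FPKM in Sca-1+ luminal libraries and 93.3, 108 and 7.84 FPKM in Sca-1- luminal libraries, and was thus highest in basal cells. Plaur, the urokinase receptor, also had its highest mean in basal libraries, with 784 and 1412 FPKM, although the third Sca-1+ luminal library had 1006 FPKM. Of the 12 tested clotting and fibrinolysis genes, 8 rose and 2 fell in stromal over epithelial libraries, led by the thrombin-binding receptor Thbd (5.79), the inhibitor Tfpi2 (4.6), the thrombin receptor F2r (4.21) and Plat (4.03). In Sca-1+ over Sca-1- luminal libraries 8 rose and 1 fell, led by F2r (4.34) and Plat (4.28). In basal over Sca-1- luminal libraries 4 rose, with F3 (5.63) and Plaur (4.57) ahead, and 1 fell, Proc (-3.12), the protein C precursor. In basal against Sca-1+ luminal libraries F2rl1 (1.75) was the 1 that rose, and Plat (-4.43) and Tfpi2 (-2.62) fell. As shares of the 12, these calls were 83.3%, 75%, 41.7% and 25% in that order of comparisons. All tested genes gave 34.2%, 35%, 46.1% and 19.7%, so both basal shares were near those of all genes. Plg, the plasminogen that Plat and urokinase cut, was listed at 0 in every library, and F2, the thrombin precursor, did not pass 0.306 FPKM.

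Of the 8 tested complement genes whose enzymes C1 inhibitor holds or which form C1q, C1s1 (4.33), Masp1 (3.11) and C1ra (2.02) rose in stromal over epithelial libraries and none fell. C1s1 had 333 and 280.0 FPKM in stromal libraries, 5.91 and 6.65 FPKM in basal libraries, 240.3, 105.0 and 15.0 FPKM in Sca-1+ luminal libraries and 5.88, 3.655 and 7.97 FPKM in Sca-1- luminal libraries, which follows the order of Serping1 in the Sca-1+ libraries. In Sca-1+ over Sca-1- luminal libraries C1s1 (3.49) and Masp1 (1.90) rose while C1rb (-2.74) and C1s2 (-2.49), copies of C1r and C1s, fell. In basal libraries 3 of the 8 fell against Sca-1- luminal and 5 against Sca-1+ luminal, and none rose. As shares of the 8, calls were 37.5% for stromal and 50% for Sca-1+ against Sca-1-, where 34.2% and 35% of all genes were called. They were 37.5% and 62.5% for basal against Sca-1- and Sca-1+ luminal, where all genes gave 46.1% and 19.7%. The stromal share was thus near that of all genes. Of 7 tested receptors that clear or bind serpins, 2 rose and 1 fell in stromal over epithelial libraries, 4 rose and 2 fell in basal over Sca-1- libraries, none rose and 1 fell in basal over Sca-1+ libraries, and 4 rose and none fell in Sca-1+ over Sca-1- libraries. Receptor calls thus came to 42.9%, 85.7%, 14.3% and 57.1% of the 7, in that order. All tested genes gave 34.2%, 46.1%, 19.7% and 35%. Lrp1, the receptor that takes up complexes of Serpine2 with its proteases, rose by 3.62 in stromal over epithelial libraries (limma adjusted p = 0.00817).

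**Figure D4:**
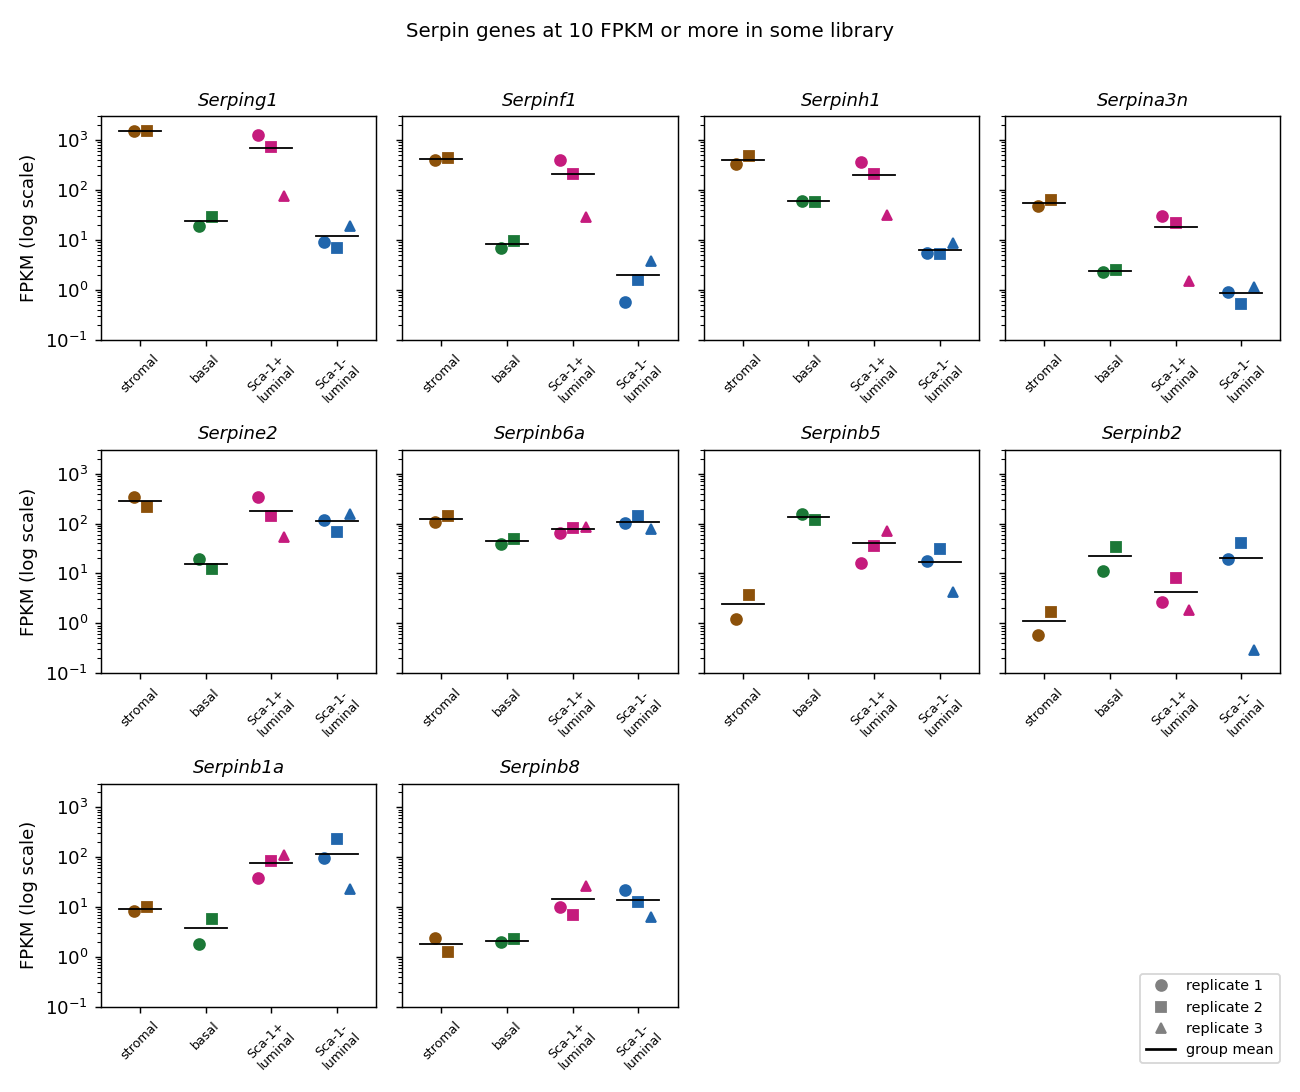
FPKM (y axis, log scale) of 10 serpin genes that reached 10 FPKM in some library, by group (x axis), with 1 point per library and a line for the group mean. Serping1, Serpinf1, Serpinh1 and Serpina3n share an order of group means with stromal libraries on top, while Serpinb5 is highest in basal libraries and Serpinb1a and Serpinb8 in luminal ones.

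The clade b genes lie in a pair of clusters, 12 members of the table on chromosome 1 and 15 on chromosome 13. In the chromosome 1 cluster 4 were tested, Serpinb5, Serpinb11, Serpinb2 and Serpinb8. Serpinb5 rose and Serpinb8 and Serpinb11 fell in basal against Sca-1- luminal libraries, and Serpinb2, with overlapping basal and luminal values, was called in no comparison. Their promoters are shown because all 4 hold the letters TGANTCA, a pattern that reads the same on the other strand. It is looser than the core that AP-1 factors bind, TGAGTCA or TGACTCA. Of those shown, only Serpinb8 holds TGAGTCA, and the others hold TGAATCA or TGATTCA. The windows are from RefSeq on GRCm38.p6, 300 bases from upstream of the annotated start to just past it, with TGANTCA in capitals.

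Serpinb5, chr1:106860925-106861224, + strand: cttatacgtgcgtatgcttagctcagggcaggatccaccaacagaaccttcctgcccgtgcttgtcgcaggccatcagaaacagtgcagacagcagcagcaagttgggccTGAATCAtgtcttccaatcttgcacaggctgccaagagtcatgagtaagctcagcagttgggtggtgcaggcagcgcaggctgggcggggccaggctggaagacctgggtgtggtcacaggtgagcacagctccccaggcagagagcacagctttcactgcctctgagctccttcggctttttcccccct

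Serpinb11, chr1:107362064-107362363, + strand: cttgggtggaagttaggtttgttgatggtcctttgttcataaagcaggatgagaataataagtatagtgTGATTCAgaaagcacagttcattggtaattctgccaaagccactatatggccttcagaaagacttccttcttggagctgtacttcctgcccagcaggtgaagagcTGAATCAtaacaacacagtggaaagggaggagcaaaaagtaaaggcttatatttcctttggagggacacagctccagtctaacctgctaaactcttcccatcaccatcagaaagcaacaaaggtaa

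Serpinb2, chr1:107511173-107511472, + strand: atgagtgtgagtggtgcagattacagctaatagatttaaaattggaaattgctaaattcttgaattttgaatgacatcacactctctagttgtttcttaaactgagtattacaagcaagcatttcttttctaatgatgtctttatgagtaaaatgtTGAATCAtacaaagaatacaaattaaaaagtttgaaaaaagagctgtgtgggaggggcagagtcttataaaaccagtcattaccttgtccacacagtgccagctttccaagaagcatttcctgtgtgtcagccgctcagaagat

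Serpinb8, chr1:107589756-107590055, + strand: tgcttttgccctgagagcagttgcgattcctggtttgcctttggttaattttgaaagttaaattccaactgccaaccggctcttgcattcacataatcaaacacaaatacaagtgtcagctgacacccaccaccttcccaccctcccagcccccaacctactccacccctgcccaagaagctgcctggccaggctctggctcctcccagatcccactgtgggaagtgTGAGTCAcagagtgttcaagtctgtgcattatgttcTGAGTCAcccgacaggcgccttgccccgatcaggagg

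Serpinb11 and Serpinb8 have 2 matches each and Serpinb5 and Serpinb2 have 1. The Serpinb11 window lies inside the GENCODE interval of that gene, since the annotations differ in its start, and a second RefSeq window of Serpinb2 holds the same match. TGANTCA occurred in 7.93% of 27025 promoters of this length, in 7 of 11 promoters of the chromosome 1 cluster and in none of 15 of the chromosome 13 cluster. Within the chromosome 1 cluster only Serpinb7 and Serpinb8 held TGAGTCA, and none held TGACTCA. The share of all promoters with these stricter letters was not counted. Of the 22 tested members, 17 had a RefSeq promoter, and the 4 shown were the ones among them with a match. The TATA letters TATAAA were in 7 of 11 promoters of the chromosome 1 cluster, among those shown only in Serpinb2, and in 14.2% of all promoters. TTCNNNGAA, the letters STAT factors bind, were in 5 of the 17 and in 8.47% of all promoters. GAANNTTC, the core of the heat shock element, was in 3 of the 17 and in 7.95% of all. It was not in the Serpinh1 window. Each motif was searched on both strands, and none of the matches in capitals overlaps a match of another motif. A member was counted if any of its windows matched, whereas the share of all promoters used only the first listed window of each gene. Members with more than 1 window thus had more chances to match. A match describes letters and not binding.

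Serpinb5 (ENSMUSG00000067006.12, chr1:106861173-106883348, plus strand) encodes maspin, an intracellular serpin without protease inhibition that is known as a marker of basal and myoepithelial cells. It had 1.22 and 3.67 FPKM in stromal libraries and 159 and 115.5 FPKM in basal libraries. Sca-1+ luminal libraries had 16.2, 36.3 and 71.5 FPKM and Sca-1- luminal libraries 17.4, 30.4 and 4.23 FPKM. Basal values were above and stromal values below all others, and the luminal groups overlapped. The basal rise over Sca-1- luminal was 3.24 (SE 0.763, limma adjusted p = 0.00692; 0.054 without the first basal library), whereas the 1.92 over Sca-1+ luminal was not called (SE 0.763, adjusted p = 0.104). Its level fell by 3.68 in stromal libraries against the epithelial mean (SE 0.663, adjusted p = 0.00351; 0.0582 without the first stromal library). Without the third Sca-1- luminal library the basal rise over Sca-1- luminal was 2.51 (adjusted p = 0.0163). Among the Sca-1+ luminal libraries the 7 basal markers had sums of 147, 494 and 98.1 FPKM, highest in the second, whereas Itgb4, 1 of the 7, had 6.995, 15.2 and 41.3 FPKM there, highest in the third like Serpinb5. The part of basal cell RNA in their Serpinb5 levels was not tested.

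Serpinb2 (ENSMUSG00000062345.10, chr1:107511423-107535478, plus strand) encodes plasminogen activator inhibitor 2, which is found mostly inside cells and is inducible in macrophages and keratinocytes. It had 0.575 and 1.68 FPKM in stromal libraries and 10.9 and 34.2 FPKM in basal libraries. Values were 2.72, 8.14 and 1.87 FPKM in Sca-1+ luminal libraries and 19.8, 40.0 and 0.289 FPKM in Sca-1- luminal libraries. The Sca-1- values ran from the lowest to the highest of all 10 libraries, and no comparison was called. The largest of the 4 changes was -2.27 for stromal over epithelial (SE 1.07, limma adjusted p = 0.129). Without the third Sca-1- luminal library, the one with the highest seminal vesicle and lowest luminal markers, Serpinb2 was called in 3 comparisons. It then fell by 2.77 in stromal libraries against the epithelial mean (SE 0.551, adjusted p = 0.00803), rose by 2.15 in basal over Sca-1+ luminal libraries (SE 0.625, 0.0443) and fell by 2.67 in Sca-1+ against Sca-1- luminal libraries (SE 0.625, 0.0214). Basal over Sca-1- luminal then came to -0.51 (0.603), in place of 0.99 with all libraries (0.554), and was called in neither fit. The part of seminal vesicle RNA in that library's Serpinb2 level was not tested. Its exons overlap those of Serpinb10 on the same strand, and Serpinb10 did not pass 0.0855 FPKM.

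Serpinb8 (ENSMUSG00000026315.13, chr1:107590006-107610484, plus strand) is known in human as an inhibitor of the protein-processing protease furin. It had 2.40 and 1.23 FPKM in stromal, 2.004 and 2.24 FPKM in basal, 9.97, 6.98 and 26.7 FPKM in Sca-1+ luminal and 21.9, 12.9 and 6.44 FPKM in Sca-1- luminal libraries. All luminal values were above all stromal and basal ones, and the luminal groups overlapped. Serpinb8 fell by 2.09 in basal against Sca-1- luminal libraries (SE 0.564, limma adjusted p = 0.0133) and by 2.11 against Sca-1+ luminal (SE 0.564, adjusted p = 0.0286). Both calls were lost without either basal library, with adjusted p of 0.0621 to 0.143, and the call against Sca-1+ luminal was lost in 5 of 18 settings in all. Its level fell by 1.58 in stromal libraries against the epithelial mean (SE 0.491, adjusted p = 0.0334), at 0.107 and 0.213 without the first or the second stromal library, and was not called in 7 of 19 settings.

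Serpinb11 (ENSMUSG00000026327.8, chr1:107361198-107380475, plus strand) inhibits trypsin-like proteases in mouse and sits between Serpinb5 and Serpinb2 on the chromosome. Its level was low, with 0.136 and 0.0894 FPKM in stromal libraries and 0.0845 and 0 FPKM in basal libraries. It had 0.804, 1.43 and 1.35 FPKM in Sca-1+ luminal libraries and 1.79, 1.97 and 2.12 FPKM in Sca-1- luminal libraries. In estimated fragments this was 4.99 and 2.99 in stromal libraries, 2.98 and 0 in basal ones, 32.9 to 50 in Sca-1+ luminal and 66.8 to 73.9 in Sca-1- luminal ones. The 4 groups fell in an order in which the Sca-1- values exceeded all Sca-1+ values and these exceeded all stromal and basal ones. Serpinb11 fell by 1.51 in basal libraries against Sca-1- luminal (SE 0.206, limma adjusted p = 0.000383), the lowest adjusted p of any member in that comparison, and the call held in every setting tried. It fell by 1.06 there against Sca-1+ luminal (adjusted p = 0.00753; 0.0562 and 0.0875 without the first or the second basal library). The change of -0.44 for Sca-1+ over Sca-1- luminal was not called (SE 0.184, adjusted p = 0.0875).

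Serpinb1a (ENSMUSG00000044734.16, chr13:32842092-32851185, minus strand) encodes the inhibitor of neutrophil elastase and cathepsin G. It had 8.36 and 10.0 FPKM in stromal libraries and 1.84 and 5.85 FPKM in basal libraries. It had 37.7, 83.9 and 111 FPKM in Sca-1+ luminal libraries and 96.4, 234 and 23.2 FPKM in Sca-1- luminal libraries, so luminal values exceeded all others and overlapped each other. Serpinb1a fell by 4.22 in basal libraries against Sca-1- luminal (SE 0.828, limma adjusted p = 0.00269), in every setting tried, and by 4.02 against Sca-1+ luminal (SE 0.828, adjusted p = 0.00976; 0.0958 without the first basal library). Stromal libraries were not called against the epithelial mean, which includes the low basal group (-1.54, SE 0.719, adjusted p = 0.125). Without the third Sca-1- luminal library, which had the lowest Serpinb1a level of the luminal libraries, this change was -1.84 and was called (adjusted p = 0.0247), and basal against Sca-1- luminal was -5.10 (adjusted p = 0.000619). A list of 11 granule genes of neutrophils, mast cells and cytotoxic lymphocytes held proteases and Prf1 (perforin), which is not a protease. It includes the targets named here for Serpinb1a and Serpinb9, namely Elane (neutrophil elastase), Ctsg (cathepsin G) and Gzmb (granzyme B). The 11 genes summed to 0.971 and 1.665 FPKM in stromal libraries and 0.3095 and 1.55 FPKM in basal libraries. Their sum ran from 0.871 to 6.42 FPKM in the Sca-1+ luminal group and from 0.235 to 0.747 FPKM in the Sca-1- one. None of the 11 was tested, Ctsg was listed at 0 in every library, and the 8 leukocyte markers summed to between 6.85 and 26.95 FPKM in the 10 libraries.

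Serpinb6a (ENSMUSG00000060147.15, chr13:33917918-34002794, minus strand), a broadly expressed inhibitor of cathepsin G, was the most even of the abundant members. It had 105.5 and 141 FPKM in stromal libraries, 38.1 and 50.1 FPKM in basal libraries, 64.1, 82.1 and 85.7 FPKM in Sca-1+ luminal libraries and 103, 140.4 and 77.2 FPKM in Sca-1- luminal libraries. Basal values were below all others, and the luminal groups overlapped. Serpinb6a fell by 1.23 in basal libraries against Sca-1- luminal (SE 0.298, limma adjusted p = 0.00798; 0.0796 without the first basal library). Its level rose by 0.78 in stromal libraries over the epithelial mean (SE 0.259, adjusted p = 0.0418), a call lost in 9 of 19 settings. The gene overlaps exons of Nqo2, Ripk1 and 1110046J04Rik on the opposite strand, and the labels do not say whether the libraries keep strand, so reads of these genes cannot be told apart where they overlap.

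Serpinb9, known as the inhibitor of granzyme B that protects cells against their own or foreign cytotoxic granules, lay between 1.49 and 6.67 FPKM. It averaged 3.76 ± 1.48 FPKM in stromal libraries (SD, n = 2), 1.56 ± 0.112 in basal libraries (n = 2), 6.265 ± 0.521 in Sca-1+ luminal libraries (n = 3) and 4.97 ± 2.39 in Sca-1- luminal libraries (n = 3). The basal libraries were the lowest, and Serpinb9 fell by 1.12 there against Sca-1- luminal (SE 0.375, limma adjusted p = 0.0336) and by 1.5 against Sca-1+ luminal (SE 0.375, adjusted p = 0.0219). Both calls were lost without either basal library, with adjusted p of 0.109 to 0.142. Of 18 settings, 6 ended the call against Sca-1- luminal, including the omission of the first (0.108) or the third Sca-1- luminal library (0.0996). The call against Sca-1+ luminal ended in 5 of 18, including the fit without the second Sca-1+ luminal library (0.0626) and the fit with the third alone (0.0838).

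The proteases of the epithelial surface differed from the clotting group. Of the 9 tested members of that list, 1 rose and 8 fell in stromal over epithelial libraries, where St14 (matriptase, -4.23) and Prss8 (prostasin, -3.48) fell together with their own inhibitors of the Kunitz family, Spint2 (-3.90) and Spint1 (-3.77). In basal over Sca-1- luminal libraries 1 rose, the secreted protease Htra1 (3.09), and 4 fell, among them Tmprss2 (-2.71). In basal against Sca-1+ luminal libraries none rose and 3 fell, and in Sca-1+ over Sca-1- luminal libraries Prss22 (4.02) and Htra1 (3.15) rose. As shares of the 9, the calls were 100%, 55.6%, 33.3% and 22.2% in that order of comparisons. All tested genes gave 34.2%, 46.1%, 19.7% and 35%. Tmprss2 (-2.49 and -2.71) and Prss8 (-2.26 and -2.34) fell in basal against both Sca-1+ and Sca-1- luminal libraries, comparisons that share the basal libraries. So did Serpinb1a, Serpinb8, Serpinb9 and Serpinb11, and also the secreted member Serpine2. A list of 10 lysosomal protease genes held legumain and cathepsins, some of which intracellular serpins can block. Of these, 4 rose and none fell in stromal over epithelial libraries, and 2 rose and 4 fell in basal over Sca-1- ones. In basal over Sca-1+ libraries none rose and 4 fell, and in Sca-1+ over Sca-1- luminal libraries 3 rose and none fell. Ctsk led the stromal rise at 4.07 and the Sca-1+ rise at 3.56. Calls in either direction were 40%, 60%, 40% and 30% of the lysosomal list in that order of comparisons. Over all tested genes they were 34.2%, 46.1%, 19.7% and 35%, so the stromal and the luminal shares were near those of all genes.

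The remaining tested members stayed under 10 FPKM. On chromosome 12, Serpina3c, Serpina3f, Serpina3g and Serpina3m belong to the mouse expansion of the antichymotrypsin gene, and all 4 rose in stromal over epithelial libraries. Serpina3c had 7.78 and 2.76 FPKM in stromal libraries, 0.0850 and 0 FPKM in basal libraries, 2.72, 0.686 and 0.299 FPKM in Sca-1+ luminal libraries and 0 FPKM in every Sca-1- luminal library. Its log2 change was 2.17 (SE 0.393, limma adjusted p = 0.00361; 0.0642 without the first stromal library). Serpina3m (1.61, adjusted p = 0.00552), Serpina3f (1.34, 0.0153) and Serpina3g (1.20, 0.0282) lost their calls without the second stromal library, at 0.0779, 0.167 and 0.236, and Serpina3g also without the first stromal (0.0707) or the second basal library (0.058). The stromal ranges were 1.34 to 4.58 FPKM for Serpina3m, 2.29 to 4.77 FPKM for Serpina3f and 2.03 to 3.93 FPKM for Serpina3g. Reads can be shared within this cluster: of 50-base words in the transcripts, 19.1% of Serpina3m, 15.9% of Serpina3g and 10.6% of Serpina3f also occur in another gene, against 6.9% of Serpina3n and 4.25% of Serpina3c. Serpina3m also overlaps exons of Serpina3k on the same strand.

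Serpina9, known in human as centerin of germinal centre B cells, ran from 0 to 0.271 FPKM in stromal libraries, with 1.25 and 6.06 FPKM in basal libraries, 1.31, 3.91 and 5.16 FPKM in Sca-1+ luminal libraries and 0.701, 0.565 and 0.145 FPKM in Sca-1- luminal libraries. Its changes were 1.46 for basal over Sca-1- (limma adjusted p = 0.0426), 1.51 for Sca-1+ over Sca-1- (0.0324) and -1.35 for stromal over epithelial (0.0432). Each of these calls was lost in 8 or 9 of the 17 or 18 settings tried, and the gene shares exons with Gm28577 on the same strand. Serpina1f, from the cluster of antitrypsin genes, ran from 0 to 0.115 FPKM in stromal libraries, was listed at 0 in basal libraries, and ran from 0.844 to 2.445 FPKM in Sca-1+ luminal and 0 to 1.20 FPKM in Sca-1- luminal libraries. It fell by 1.22 in basal against Sca-1+ luminal libraries (adjusted p = 0.0395), a call lost in 11 of 18 settings.

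Serpinb6b and Serpinb6c, from the same chromosome 13 cluster as Serpinb6a, went opposite ways in stromal libraries. Of their 50-base words, 3.07% of Serpinb6b and 9.92% of Serpinb6c also occur in another gene. Serpinb6c had 1.015 and 4.34 FPKM there, 0 and 0.189 FPKM in basal, 0.937, 1.075 and 0.216 FPKM in Sca-1+ luminal and at most 0.175 FPKM in Sca-1- luminal libraries, and rose by 1.39 over the epithelial mean (limma adjusted p = 0.0122; 0.158 without the second stromal library). Serpinb6b had at most 0.0550 FPKM in stromal libraries and 0.423 to 1.44 FPKM in the epithelial ones, and fell by 0.80 (adjusted p = 0.0383), a call lost in 7 of 18 settings. Serpini1, neuroserpin, an inhibitor of Plat in the nervous system, lay between 0.182 and 1.69 FPKM and was called in no comparison.

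**Figure D5:**
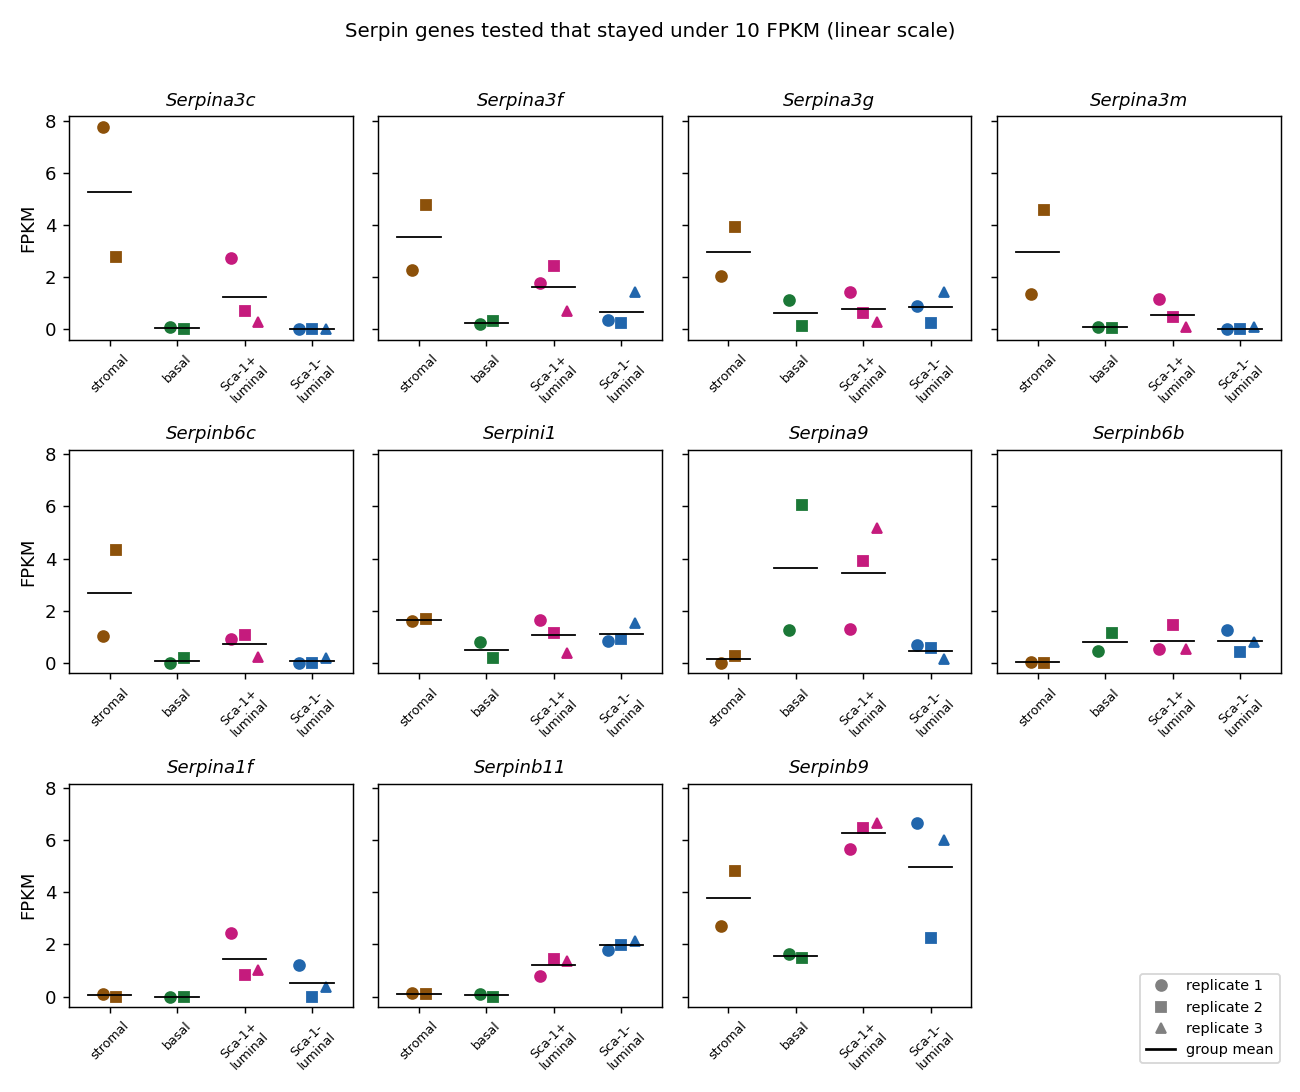
FPKM (y axis, linear scale) of the 11 tested serpin genes that stayed under 10 FPKM, by group (x axis), with 1 point per library and a line for the group mean. Serpina3c, Serpina3f, Serpina3g, Serpina3m and Serpinb6c have their highest mean in stromal libraries, and Serpinb11 sits at or under 0.136 FPKM in stromal and basal libraries but between 1.79 and 2.12 FPKM in Sca-1- luminal libraries.

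The 40 members that were not tested hold most of the classical plasma serpins. Of these, 22 were listed at 0 in every library, among them the antitrypsin genes Serpina1a, Serpina1b, Serpina1c and Serpina1d, the thyroxine carrier Serpina7, and the squamous epithelial genes Serpinb3a, Serpinb3b, Serpinb3c, Serpinb3d and Serpinb13. The others listed at 0 were Serpina12, Serpina3a, Serpina3h, Serpina3j, Serpina3k, Serpinb1c, Serpinb6d, Serpinb9c, Serpinb9d, Serpinb9e, Serpinb9g and Serpine3. The remaining 18 were above 0 in some library, with the highest value of each given here. Serpina3i reached 0.765 FPKM in the second stromal library, Serpinb12 0.599 FPKM and Serpina5, the protein C inhibitor, 0.330 FPKM. Serpinb1b, Serpind1 (heparin cofactor II), Serpinf2 (antiplasmin), Serpinb9b and Serpinc1 (antithrombin) reached 0.255, 0.223, 0.220, 0.169 and 0.166 FPKM. Serpinb6e and Serpini2 reached 0.113 and 0.105 FPKM, and Serpinb10, Serpina3b, Serpina6 (the corticosteroid carrier), Serpina10, Serpina11, Serpina1e, Serpinb9f and Serpinb7 stayed between 0.0242 and 0.0855 FPKM. The 5 hepatocyte markers summed to at most 1.12 FPKM in any library. Near copies weigh more on these genes. Of 40 untested genes assessed, 17 share over 10% of their 50-base words with another gene, against 3 of the 22 tested. The genes assessed include Serpina16, for which no transcript was found, and lack Serpina3h, which was not assessed for near copies. An exact 0 in these files can be a failed estimate. Genes with an estimate flagged as failed were dropped, so no member listed at 0 carries that flag. Such genes are still described only as listed at 0.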

How the data were processed

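RNA of sorted mouse prostate cells was measured in 10 libraries of 4 groups, taken from the gate in each label. Per the labels' protocols, cDNA was primed with random and oligo(dT) primers (NuGEN Ovation) and built into TruSeq DNA libraries; whether strand is kept is not stated. Per the submitters' processing notes, bcl2fastq 1.8.3, TopHat and Cufflinks were used on mm10. The authors deposited FPKM for each of 63241 UCSC transcripts, with confidence bounds, per the file headers. The deposited coverage, a signal of read depth per transcript, was not used in any test.

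Transcripts were matched by mm10 coordinates to GENCODE M21 and RefSeq (GRCm38.p6), which named 52928 (83.7%). Transcripts under 300 nt (8006) were left out, FPKM was summed per gene, and 7 genes with a failed estimate were dropped. The 12415 genes that reached 1 FPKM in 2 libraries or more went into limma 3.58.1 (R 4.3.3), which fitted log2(FPKM + 1) in 1 model of 4 group means over 10 libraries (eBayes with trend, 6 residual degrees of freedom), with Benjamini-Hochberg adjustment over all of them. The groups thus share an estimate of spread. The fit was tested on simulated data. Tables and figures used Python 3.11.15, pandas 2.3.3 and matplotlib 3.10.9. Depth was read from FPKM steps, where 90.7% to 94.1% of low values lay within 0.05 of whole fragments.

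Members tested and at 10 FPKM or more in some library were described by library, tested members below that by range or values, and the rest by their highest value. From each gene list, counts and at most 4 called genes with the largest changes per comparison were named, plus single genes whose levels were chosen after their values were seen. The members, the lists of interacting genes and markers, and the tests were chosen with earlier results of these data known. Alternatives covered the pseudocount, the filter, scaling, transcript choice, matching and each library left out; stromal against the mean of basal and Sca-1- luminal was added after seeing the data. Protein sequences were not analysed here, and 1 tested member, counted in the totals, is not reported by name.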

Additional observations from a re-analysis of the deposited data

How the results depend on the processing

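The members were called 41 times over the 4 comparisons, and under 19 alternative settings no call changed sign. Those that held in every setting that gave a value include Serpinf1, Serping1 and Serpinh1 in Sca-1+ over Sca-1- luminal, Serpinb1a and Serpinb11 in basal against Sca-1- luminal, and Serpinf1 and Serping1 in stromal libraries. The number of members called in basal against Sca-1+ luminal, 8, was 4 under quantile normalization and 4 with the third Sca-1+ luminal library alone. With each library left out in turn, the number called ran from 4 to 17 for stromal, 5 to 12 for basal against Sca-1-, 0 to 12 for basal against Sca-1+ and 4 to 7 for Sca-1+ against Sca-1- luminal. Leaving out a library leaves fewer degrees of freedom, and for stromal and basal cells a lone library assumed to vary like the other groups. Calls over all genes in these fits are not given here, so the ranges are not read as particular to serpins. Quantile normalization shifted the median of all genes by -0.26 for Sca-1+ over Sca-1- and by 0.37 for basal over Sca-1+ luminal. Without a filter on low values 11 of the 41 calls were lost, and 36 of 41 could be made without matching by span overlap. No paired analysis was possible because the labels give no replicate number that groups share: each title ends in a library number of its own, and nothing ties libraries of different groups to a shared animal, batch or day. Serpinb11 and others near 1 FPKM rest on few fragments. Settings that lose a call do not show that the groups are alike.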
